A study of Homo sapiens with 6 samples.

Results

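PU.1 (gene SPI1), GFI1, the RUNX factors RUNX1 and RUNX3, their shared partner CBFB, and the blood cell regulators ETV6, IKZF1 and LMO2 were followed as a group of 8 transcription factor genes. They were taken by name, with earlier results of these data known, and no cut on their values was used. They came from 13289 genes listed in at least 1 of 2 deposited RNA-seq count tables, and both tables listed all 8. The cells were NB4, a human acute promyelocytic leukemia line. It carries the PML-RARA fusion in every group, and all-trans retinoic acid (ATRA) drives it to granulocytic maturation. They carried hairpin 1 (shRNA1) or hairpin 2 (shRNA2) against SMARCD2, a subunit of the BAF chromatin remodelling complex, or a control construct. Each construct was given 1 µM ATRA, which the labels call differentiated, or the vehicle DMSO, called undifferentiated, so that each treatment has 2 knockdown libraries and 1 control library. The comparisons address how the differentiation stimulus and the loss of SMARCD2 bear on these regulators. NB4 is a single line, the labels used here state no treatment time, and nothing says whether a hairpin's ATRA and DMSO libraries came from separate transductions. The p-values measure only the spread between these libraries.

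PU.1 is an ETS family factor that opens and activates genes of monocytes and granulocytes, and its dose is known to steer the choice between them. GFI1 is a zinc finger repressor that recruits the histone demethylase KDM1A to its targets and is needed for neutrophil formation. RUNX factors bind DNA as heterodimers with CBFB, which itself makes no base contacts, and they act with PU.1 and C/EBP factors at myeloid promoters. ETV6 is an ETS family repressor, IKZF1 (Ikaros) a zinc finger factor that works with the NuRD remodelling complex, and LMO2 a bridging protein that joins GATA and bHLH factors through LDB1.

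The 250 bases before annotated starts of 5 of the 8 genes, taken from RefSeq on GRCh38.p14, are shown because PU.1, RUNX and GFI1 proteins are known to act on each other's genes. SPI1, CBFB and LMO2 are named only. The 5 genes had 10 such windows, and the 7 that overlap no annotated exon are printed. They were RUNX3 at its distal start at chr1:24965011-24965260 and at a second start at chr1:24930277-24930526, both on the minus strand, RUNX1 at chr21:34888700-34888949 on the minus strand, GFI1 at its distal start at chr1:92486926-92487175 and at a second start at chr1:92486100-92486349, both on the minus strand, ETV6 at chr12:11649424-11649673 on the plus strand, and IKZF1 at an internal start at chr7:50318798-50319047 on the plus strand. Each is written 5′ to 3′ on the strand of its gene. Capitals mark the letters GAGGAA, a core recognised by PU.1, and TGNGGT on either strand, so that TTCCTC and ACCNCA are their reverse forms. TGNGGT is a loose form of the RUNX core TGYGGT, with any base at N where the core has T or C.
RUNX3 distal start: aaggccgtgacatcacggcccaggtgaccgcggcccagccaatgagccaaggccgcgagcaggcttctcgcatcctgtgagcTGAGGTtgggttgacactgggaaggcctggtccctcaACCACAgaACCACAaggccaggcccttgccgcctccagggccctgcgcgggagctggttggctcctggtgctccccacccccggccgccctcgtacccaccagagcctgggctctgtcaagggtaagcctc
RUNX3 second start: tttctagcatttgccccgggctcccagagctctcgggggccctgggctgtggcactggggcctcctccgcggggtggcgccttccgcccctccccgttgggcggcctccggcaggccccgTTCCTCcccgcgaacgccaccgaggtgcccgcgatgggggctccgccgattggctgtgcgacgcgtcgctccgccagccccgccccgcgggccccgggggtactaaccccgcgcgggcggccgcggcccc
RUNX1: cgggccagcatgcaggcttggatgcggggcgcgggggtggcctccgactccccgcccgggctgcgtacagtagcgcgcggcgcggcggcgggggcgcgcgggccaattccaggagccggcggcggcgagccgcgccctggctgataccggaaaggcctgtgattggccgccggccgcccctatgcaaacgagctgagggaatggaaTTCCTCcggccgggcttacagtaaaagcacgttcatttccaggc
GFI1 distal start: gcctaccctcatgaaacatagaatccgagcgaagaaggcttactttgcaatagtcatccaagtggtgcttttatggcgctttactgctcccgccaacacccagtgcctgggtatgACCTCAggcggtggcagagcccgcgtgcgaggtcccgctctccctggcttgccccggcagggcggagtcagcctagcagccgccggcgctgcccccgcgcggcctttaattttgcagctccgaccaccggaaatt
GFI1 second start: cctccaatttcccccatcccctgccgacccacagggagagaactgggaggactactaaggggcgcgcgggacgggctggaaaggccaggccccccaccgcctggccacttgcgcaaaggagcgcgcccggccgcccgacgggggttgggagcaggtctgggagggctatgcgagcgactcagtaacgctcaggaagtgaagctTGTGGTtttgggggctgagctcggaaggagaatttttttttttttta
ETV6: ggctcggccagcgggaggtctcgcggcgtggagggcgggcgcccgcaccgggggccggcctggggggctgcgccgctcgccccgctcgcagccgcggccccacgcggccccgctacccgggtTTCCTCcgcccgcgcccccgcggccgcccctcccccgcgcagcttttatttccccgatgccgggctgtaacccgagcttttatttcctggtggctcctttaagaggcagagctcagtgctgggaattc
IKZF1 internal start: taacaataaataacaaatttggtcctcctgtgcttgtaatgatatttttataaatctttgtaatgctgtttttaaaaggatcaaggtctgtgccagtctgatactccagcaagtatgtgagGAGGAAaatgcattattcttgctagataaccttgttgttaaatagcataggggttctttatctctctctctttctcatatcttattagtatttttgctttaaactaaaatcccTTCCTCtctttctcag
The distal RUNX3 window held 3 RUNX matches, at 168, 131 and 123 bases before the start, and no PU.1 match. The match at 168 bases reads TGAGGT and so fits the loose form only. The second RUNX3 window was the reverse, with a PU.1 match 130 bases before its start and no RUNX match. GFI1 had a RUNX match of the loose form only, ACCTCA, 135 bases before its distal start and another, TGTGGT, 47 bases before the second start. A further GFI1 window, not printed because it overlaps a GFI1 exon, had a PU.1 match at 30 bases. Its RUNX match at 132 bases, TGGGGT, fits the loose form only. A single PU.1 match lay 44 bases before the RUNX1 start and 128 bases before the ETV6 start. The printed IKZF1 window had PU.1 matches at 129 and 16 bases. That window lies inside the gene, before an internal start, and nothing here shows it to be a promoter. The IKZF1 windows not printed held no PU.1 match, and in them a single RUNX match lay 144 bases before a start. No printed window held matches to both motifs. Of 35114 RefSeq promoter windows of the same length, 23.6% held the PU.1 letters and 37.7% the loose RUNX letters. The GFI1 core AAATCA, present in 11.6% of all windows, was in none of the 7, and of the 3 windows not printed it was in 1, of IKZF1, at 130 bases before the start. These matches describe the letters only, and no binding was measured.

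The libraries held 29291209 to 58099733 counts. Each library had 2 count columns, taken as its sequencing runs. The first run gave 53.1% to 54.6% of the control libraries but 70.6% to 80.7% of the knockdown libraries. SMARCD2 stood at 64.2 and 35.6 CPM (counts scaled to library size with TMM) with hairpins 1 and 2 in ATRA, against 122 in the control, and at 39.0 and 25.7 CPM in DMSO, against 95.5 in the control. Of 5 promyelocyte markers tested for ATRA against DMSO, 2 were higher and 3 lower: MPO averaged 5105 CPM in ATRA and 9966 CPM in DMSO, and PRTN3 331 CPM in ATRA and 55.7 CPM in DMSO. ELANE was at 0.341 CPM in DMSO and was not listed in ATRA. Neutrophil maturation markers summed to 1499 to 1634 CPM in ATRA libraries (7 of 7 listed), against 359 to 394 CPM in DMSO libraries (4 of 7 listed, with LTF, CAMP and FPR1 absent). The sums rest on different numbers of genes, and 3 of the 4 tested were higher while MMP9 was lower, at 54.7 CPM in ATRA and 172 CPM in DMSO. Promyelocyte markers summed to 4666 to 6352 CPM in ATRA (5 of 6 listed) and 10184 to 10415 CPM in DMSO (6 of 6), and MPO made up most of each sum. Monocyte and macrophage markers summed to 231 to 248 CPM in ATRA (4 of 6) and 338 to 370 CPM in DMSO (3 of 6), with VCAN and CD163 in neither table.

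ATRA changed 7 of the 8 genes, and SPI1 by far the most. SPI1, IKZF1, RUNX3, RUNX1 and LMO2 rose, GFI1 and ETV6 fell, and CBFB did not pass the test. The test was edgeR's quasi-likelihood test of ATRA against DMSO over the 3 constructs (n = 3 libraries each, adjusted p under 0.05 over 12301 genes), which called 74% of all genes, 36.2% higher and 37.8% lower. The response was broad, and 7 of 8 called is no mark of these genes against that share. In bulk RNA, a change in the mix of cell states and a change in RNA per cell cannot be told apart, and the part of the marker shifts given above in these differences was not tested.

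SPI1 stood at 373 and 355 CPM with hairpins 1 and 2 in ATRA and 406 CPM in the control in ATRA, against 92.9, 103 and 85.3 CPM in the same constructs in DMSO. Every ATRA library lay at more than 3 times the level of any DMSO library. The mean was 378 ± 26.1 CPM in ATRA and 93.9 ± 9.13 CPM in DMSO (SD, n = 3 each), a log2 fold change of 2.01 ± 0.08 (SE; 4.02-fold, adjusted p = 1.1e-07). It ranked at the 95.4th percentile of log2 fold changes, and 21.2% of all genes were called with at least a 2-fold change in either direction. Of the 8 genes, SPI1 alone passed 2-fold.

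GFI1 fell to 68.6, 62.7 and 61.1 CPM with hairpin 1, hairpin 2 and the control in ATRA, against 97.3, 96.4 and 107 CPM in DMSO. The groups did not overlap. Its mean was 64.1 ± 3.92 CPM in ATRA and 100.1 ± 5.67 CPM in DMSO, a log2 fold change of -0.64 ± 0.06 (adjusted p = 2.4e-05). ETV6, the other repressor with lower RNA, was held within a narrow band in ATRA at 95.1, 98.0 and 94.6 CPM in the same order of constructs, against 136, 153 and 131 CPM in DMSO. That made a log2 fold change of -0.54 ± 0.06 (adjusted p = 3.5e-05).

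RUNX1, the RUNX factor of blood stem and myeloid cells, stood at 252, 249 and 239 CPM with hairpin 1, hairpin 2 and the control in ATRA, against 201, 202 and 206 CPM in DMSO. The step was small, with a log2 fold change of 0.28 ± 0.04 (adjusted p = 3.6e-04), and 0.15 (adjusted p = 0.012) with libraries scaled to total counts. RUNX3, its relative known from T and dendritic cells, stood at 88.5, 102 and 99.4 CPM in ATRA, against 59.3, 70.4 and 68.4 CPM in DMSO (0.55 ± 0.08, adjusted p = 2.2e-04). In both treatments RUNX3 was lowest with hairpin 1. CBFB, the partner of both, stood at 228, 243 and 221 CPM in ATRA, against 216, 219 and 206 CPM in DMSO. Its ATRA libraries lay just above its DMSO libraries, and its log2 fold change of 0.11 ± 0.04 had an adjusted p of 0.051, with the sign reversed (-0.021) when libraries were scaled to total counts.

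IKZF1 stood at 333, 333 and 326 CPM with hairpin 1, hairpin 2 and the control in ATRA, against 218, 222 and 205 CPM in DMSO. Its constructs lay close together in each treatment, and the log2 fold change was 0.62 ± 0.04 (adjusted p = 2.1e-06). Of the 8 genes IKZF1 alone shared exon bases with another annotated gene, AC124014.1 on the opposite strand, over 1.35% of its exon length, and whether counting used strand is not stated. LMO2 stood at 88.5, 93.0 and 82.0 CPM in ATRA, against 67.8, 78.6 and 71.3 CPM in DMSO. The highest DMSO library lay just below the lowest ATRA library. Its log2 fold change was 0.28 ± 0.06 (adjusted p = 0.0043), and it lost the call under total counts (0.15, adjusted p = 0.080).

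**Figure D1:**
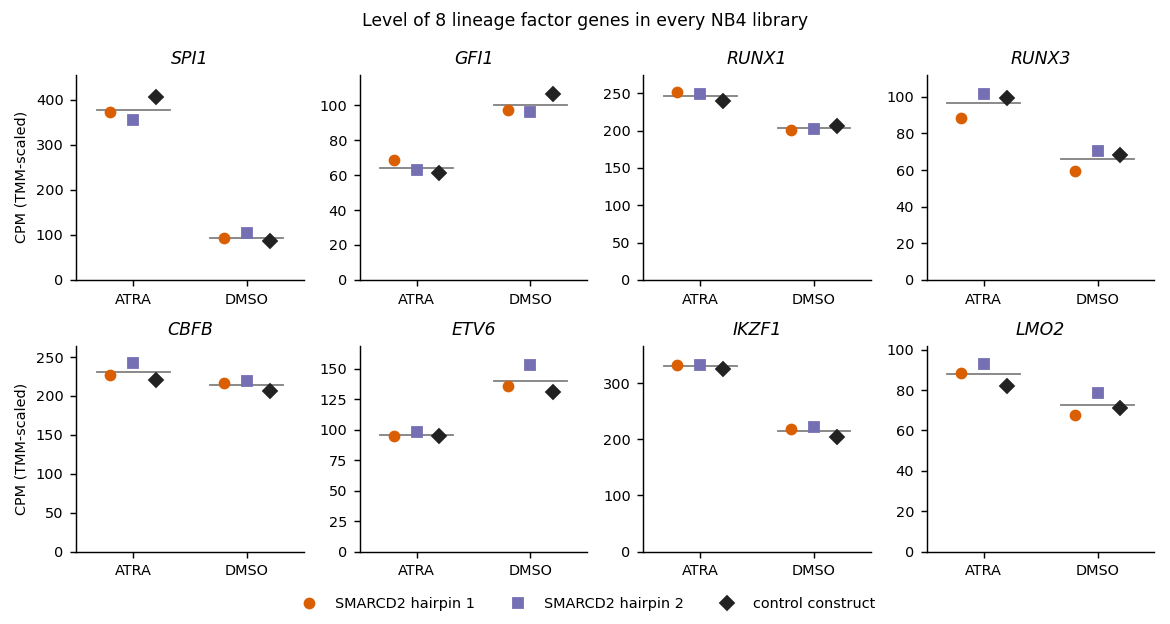
Level of each of the 8 genes in CPM (TMM-scaled) in every library, with ATRA left of DMSO in each panel; circles are hairpin 1, squares hairpin 2, diamonds the control construct, and the grey bar is the mean of the 3 libraries. SPI1 stands at 378 CPM on average in ATRA and 93.9 CPM in DMSO, GFI1 and ETV6 are lower in ATRA, and no gene has ATRA and DMSO libraries that overlap.

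The ATRA and DMSO libraries did not overlap for any of the 8 genes, 6 with ATRA above and 2 with ATRA below. Of all genes tested, 77.1% had groups that did not overlap, 37.6% with ATRA above and 39.5% with ATRA below. The median log2 fold change of the 8 genes was 0.28, against -0.01 over all genes. With libraries scaled to total counts, the all-gene median shifted by -0.13, and 29.6% of genes were called higher and 46.5% lower. Under that scaling 4 of the 8 genes were higher (SPI1, RUNX1, RUNX3 and IKZF1) and 2 lower (GFI1 and ETV6).

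Construct by construct, the difference of ATRA minus DMSO in log2 CPM kept its sign for every gene. For SPI1 it was 2.00 with hairpin 1, 1.78 with hairpin 2 and 2.25 in the control, the widest spread in the group. For GFI1 it was -0.51, -0.62 and -0.80 in the same order, again largest in size in the control. ETV6 had -0.51, -0.64 and -0.47, and RUNX1 0.33, 0.30 and 0.21. RUNX3, at 0.58, 0.53 and 0.54, and IKZF1, at 0.61, 0.59 and 0.67, differed less across the constructs. LMO2 had 0.38, 0.24 and 0.20, and CBFB 0.07, 0.15 and 0.10.

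**Figure D2:**
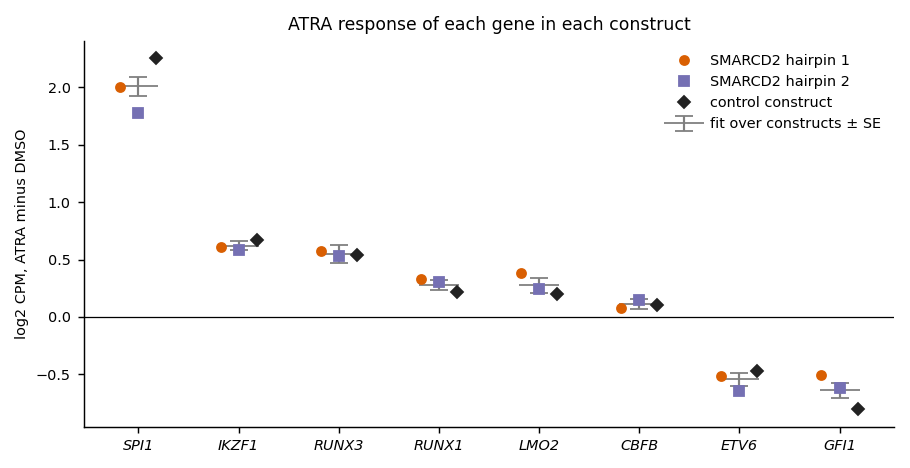
ATRA minus DMSO difference of each gene on the log2 CPM scale, for hairpin 1 (circles), hairpin 2 (squares) and the control (diamonds), with the fitted value over the constructs and its SE in grey. SPI1 lies at 1.78 to 2.25, GFI1 and ETV6 lie below 0 in each construct, and CBFB lies nearest to 0.

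Set against exon length, the order of the 8 genes differed between the treatments. The lengths are of merged exons from the GENCODE basic annotation, and the annotation used for counting is not stated. The order within a treatment depends on these lengths. In CPM without length, SPI1 averaged 93.9 in DMSO, below GFI1 at 100.1. In ATRA, SPI1 led with 182.7 ± 12.6 CPM per kb of exon (SD, n = 3), and CBFB followed with 72.7 ± 3.53. IKZF1 had 40.6 ± 0.454 CPM per kb, LMO2 36.3 ± 2.27 and RUNX1 30.0 ± 0.814. RUNX3 with 22.1 ± 1.62 and GFI1 with 20.9 ± 1.28 CPM per kb overlapped, and ETV6 was lowest with 16.0 ± 0.305. In DMSO, CBFB led with 67.4 ± 2.16 CPM per kb and SPI1 came second with 45.4 ± 4.41. GFI1 with 32.7 ± 1.85 and LMO2 with 30.0 ± 2.29 CPM per kb overlapped there. IKZF1 had 26.4 ± 1.07, RUNX1 with 24.7 ± 0.341 and ETV6 with 23.4 ± 1.94 overlapped, and RUNX3 was lowest with 15.1 ± 1.35 CPM per kb. GFI1 thus ranked 7 of 8 in ATRA and 3 of 8 in DMSO.

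The ratio of SPI1 to GFI1 per kb, a pair of factors known from mouse progenitors to oppose each other in the choice between monocyte and granulocyte fates, was 8.05, 8.38 and 9.85 with hairpin 1, hairpin 2 and the control in ATRA, against 1.41, 1.59 and 1.18 in DMSO. The control had the highest ratio of the 3 constructs in ATRA and the lowest in DMSO. In CPM without length, SPI1 lay below GFI1 in DMSO with hairpin 1 and in the control. Which of the 2 was higher there thus depends on the exon lengths. SPI1 to ETV6, an activator and a repressor of the ETS family, stood at 11.3, 10.5 and 12.4 in ATRA, against 1.98, 1.96 and 1.89 in DMSO. RUNX3 to RUNX1 stood at 0.662, 0.771 and 0.784 in ATRA, against 0.557, 0.657 and 0.626 in DMSO, so RUNX1 RNA stayed above RUNX3 RNA per kb in all 6 libraries. The 8 genes together took 1525, 1535 and 1530 CPM in ATRA, against 1088, 1145 and 1080 CPM in DMSO.

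RUNX2 and GFI1B, which are not among the 8, went the opposite way to their relatives in the group. RUNX2, the RUNX factor of bone, stood at 58.2, 49.1 and 67.3 CPM with hairpin 1, hairpin 2 and the control in ATRA, against 130.2, 115 and 117 CPM in DMSO (log2 fold change -1.07 ± 0.10, adjusted p = 1.5e-05). It fell while RUNX1 and RUNX3 rose. GFI1B, the GFI1 paralog of erythroid and megakaryocytic cells, stood at 30.9, 40.0 and 25.6 CPM in ATRA, against 5.67, 5.06 and 3.57 CPM in DMSO (2.75 ± 0.12, adjusted p = 1.6e-07), the opposite direction to GFI1. Of 6 erythroid and megakaryocyte markers, only ITGA2B was listed in ATRA, at 17.6 to 26.8 CPM, while ITGA2B and KLF1 summed to 27.1 to 31.2 CPM in DMSO. HBB, PF4 and GP9 were in neither table. SPIB, the closest relative of PU.1 in lymphoid cells, was listed only in the ATRA table, at 0.164, 0.562 and 0.177 CPM.

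Of 18 other ETS family factors, 14 were tested, of which 8 rose, 4 fell and 2 did not pass (median 0.28, against -0.01 over all genes). This count and those of the lists below stand against 36.2% higher and 37.8% lower over all genes. ELF4, known from mice to restrain T cell proliferation, rose by 2.11 ± 0.06 (194 CPM in ATRA and 45.3 CPM in DMSO on average, adjusted p = 2.0e-08). ELK3, a ternary complex factor, rose by 1.81 ± 0.05 and ETS1 by 1.19 ± 0.16 on the log2 scale. ETV4, a PEA3 group factor, had a log2 fold change of -1.88 ± 0.11 (19.4 CPM in ATRA and 69.8 CPM in DMSO). ETV7 was listed only in ATRA, at 9.64 ± 0.383 CPM, ERG only in DMSO, at 1.03 ± 0.473 CPM, and SPIC in neither table.

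Among 13 RUNX relatives and cofactors, 5 rose, 5 fell and 3 did not pass (median -0.04), shares close to the 36.2% higher and 37.8% lower of all genes. The Groucho corepressor TLE4 rose by 2.00 ± 0.06 on the log2 scale, with 75.5 CPM in ATRA and 18.9 CPM in DMSO, and HIPK2, a kinase that phosphorylates RUNX1, rose by 1.85 ± 0.04. CBFA2T3, an ETO family corepressor, went the other way at -1.53 ± 0.06 (55.8 CPM in ATRA and 161 CPM in DMSO, adjusted p = 1.3e-07). Under total counts the split was 4 higher and 7 lower.

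Of 11 relatives and corepressors of GFI1 and ETV6, 10 were tested, 4 rose and 6 fell (median -0.20), and EHMT2 was in neither table. KDM1A, the demethylase that GFI1 recruits, had a log2 fold change of -0.86 ± 0.05, with 93.4 CPM in ATRA and 169 CPM in DMSO (adjusted p = 5.1e-07), and so was lower beside GFI1. PIAS3, which binds GFI1, had -1.24 ± 0.07 (adjusted p = 9.5e-07). HDAC1 rose by 0.54 ± 0.04 (adjusted p = 5.2e-06).

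Of 11 genes of the LMO2 complex, 10 were tested, and 3 rose, 5 fell and 2 did not pass (median -0.14), with TAL1 listed only in DMSO at 0.768 ± 0.431 CPM. GATA2, the GATA factor of progenitors and mast cells, fell to 5.95, 3.91 and 9.82 CPM with hairpin 1, hairpin 2 and the control in ATRA, against 75.2, 67.4 and 66.4 CPM in DMSO (-3.48 ± 0.22, adjusted p = 1.5e-06). The E protein TCF3 had -1.33 ± 0.05 and the LDB1 partner SSBP2 -1.42 ± 0.10. GATA1 rose to 5.21 ± 0.339 CPM in ATRA, against 2.43 ± 0.258 CPM in DMSO (adjusted p = 1.4e-04). LMO2 itself rose.

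Ikaros relatives and NuRD subunits were mostly lower in ATRA, with 11 of 14 down, 2 up and 1 not passing (median -0.39), while IKZF1 rose. The test called 37.8% of all genes lower and 36.2% higher. IKZF2 (Helios) had -1.32 ± 0.19, and the metastasis-associated subunits MTA1 and MTA3 had -0.76 ± 0.05 and -0.72 ± 0.06. The exceptions were the NuRD ATPase CHD3, which rose by 0.48 ± 0.08 (adjusted p = 8.1e-04), and MTA2, which rose by 0.27 ± 0.05 and was named after its value was seen. The split was the same, 2 higher and 11 lower, under total counts.

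Genes known as PU.1 targets were mostly higher in ATRA, as SPI1 was. Of 20 PU.1 targets, 18 were tested, and 15 rose, 2 fell and 1 did not pass, with a median log2 fold change of 1.78 against -0.01 over all genes. The test called 36.2% of all genes higher and 37.8% lower. ITGAM and CSF3R are also on the neutrophil maturation marker list, and CSF1R and CD14 on the monocyte and macrophage list. The part of PU.1 in these values was not tested. CYBB, the catalytic subunit of the phagocyte NADPH oxidase, rose by 5.03 ± 0.09. It averaged 2694 CPM in ATRA and 82.4 CPM in DMSO. The shared beta chain gene CSF2RB rose by 4.18 ± 0.11 and the integrin gene ITGAM by 3.92 ± 0.12, with adjusted p from 1.9e-09 to 2.0e-08 for the 3 genes. The exceptions, named after their values were seen, were CSF1R, the receptor of macrophage colony-stimulating factor (-0.81 ± 0.06), the monocyte factor gene IRF8 (-0.55 ± 0.16, adjusted p = 0.012), and lysozyme, LYZ, which did not pass (-0.06 ± 0.12). CD14 was listed only in ATRA, at 4.40 ± 0.791 CPM, and CSF2RA in neither table.

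Of 10 genes that GFI1 is known to repress, 9 were tested, and 6 rose, 1 fell and 2 did not pass (median 0.61), against 36.2% higher and 37.8% lower over all genes. ID2, an inhibitor of E proteins, stood at 159 ± 9.61 CPM in ATRA and 2.76 ± 0.259 CPM in DMSO (5.84 ± 0.07, adjusted p = 3.9e-10). CSF1, the macrophage growth factor, rose by 3.73 ± 0.12, and the zinc finger genes EGR2 and EGR1 rose by 3.02 ± 0.30 and 1.52 ± 0.34. IRF8, also on the PU.1 list, was the one that fell. Which factor acted on these genes was not tested.

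Of 13 RUNX1 targets 8 were tested, and 3 rose, 3 fell and 2 did not pass (median 0.03, and -0.10 under total counts), again close to the 36.2% higher and 37.8% lower of all genes. The integrin gene ITGAL rose by 1.64 ± 0.08, the kinase gene PRKCB by 1.52 ± 0.05 and CD4 by 1.44 ± 0.08. CEBPA, the C/EBP factor of early myeloid cells, had -1.42 ± 0.07, with 29.2 CPM in ATRA and 78.3 CPM in DMSO (adjusted p = 2.6e-07). MPO and CSF1R, which the same list holds, were the other 2 that fell.

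**Figure D3:**
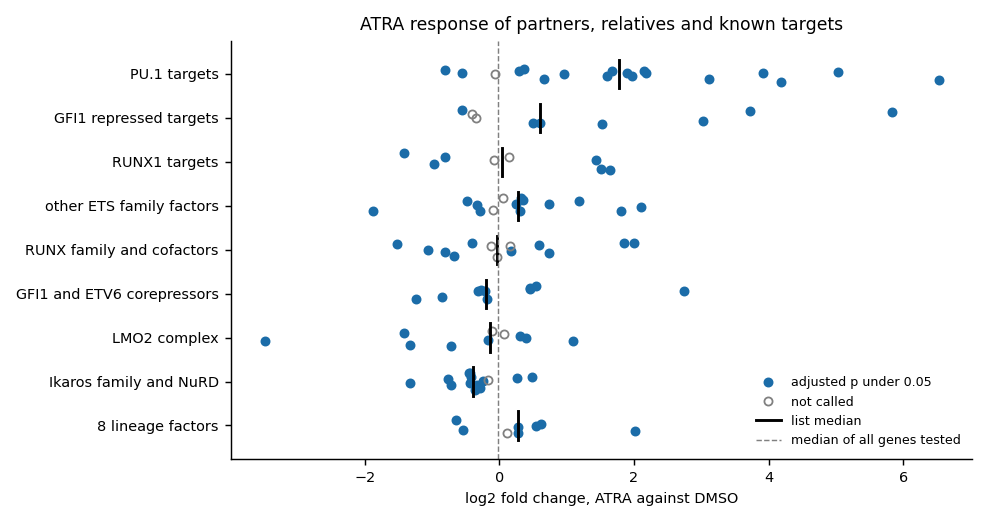
Log2 fold change of ATRA against DMSO for each tested gene of 8 lists of targets, relatives and partners and for the 8 factors; filled points had an adjusted p under 0.05, open points did not, black bars are list medians and the dashed line is the median of all genes. PU.1 targets lie mostly to the right with a median of 1.78, and Ikaros and NuRD genes mostly to the left with a median of -0.39.

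By root mean square difference of centred log2 CPM over the 6 libraries, among 9466 genes of at least 10 CPM, the gene nearest to SPI1 was SLC39A13, at 0.042, with VASP at 0.049 and ACER3 at 0.058. GFI1 had ERI3 (0.034), C21orf58 (0.035) and VAMP1 (0.037) nearest. For RUNX1 these were NUP62 (0.012), PPIL2 (0.020) and FAM208A (0.020), and for RUNX3 HS1BP3 (0.036), PTPRD (0.042) and the NuRD gene CHD3 (0.044). CBFB had DDX39A (0.013), NBPF15 (0.014) and SHOC2 (0.016). ETV6 had SLC43A3 (0.032), HDAC5 (0.036) and USP48 (0.038). IKZF1 had SNAP23 (0.015), CAPZB (0.018) and ADAM10 (0.022), and LMO2 had H2AFY (0.025) and CROT (0.030). None of the 8 was among the 3 genes nearest to another. These distances describe 6 libraries in which treatment sets most of the variation.

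With SMARCD2 knocked down, the fitted log2 differences of the 8 genes from the control lay between -0.16 and 0.14 in ATRA and between -0.14 and 0.20 in DMSO, and none passed the test. In ATRA the fit of 2 hairpin libraries against 1 control library called 0.00813% of all genes, a single gene (1329 at an unadjusted p under 0.05, 52 by DESeq2 and 1 by limma-voom). In DMSO it called 0% (868 at an unadjusted p under 0.05, 38 by DESeq2 and 0 by limma-voom). SMARCD2 itself, at -1.29 ± 0.31 in ATRA (adjusted p = 0.32) and -1.55 ± 0.32 in DMSO (adjusted p = 0.39), did not pass in this fit, so that a miss of the threshold here does not show that a gene did not change. On simulated counts for the DMSO comparison, 56% of genes changed 1.5-fold and 90.5% of genes changed 2-fold were recovered. There both hairpins were given the same change, and each gene had the spread of a fitted trend. These shares may therefore not hold for the measured genes, as the miss of SMARCD2 shows.

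SPI1 had a log2 difference of knockdown from control of -0.16 ± 0.08 in ATRA (SE, n = 2 hairpin libraries against 1 control library; adjusted p = 0.51) and 0.20 ± 0.08 in DMSO (adjusted p = 0.71). The separate hairpin differences were -0.13 with hairpin 1 and -0.19 with hairpin 2 in ATRA, against 0.12 and 0.28 in DMSO. Both hairpins lay below the control in ATRA and above it in DMSO. GFI1 was the mirror of this, with both hairpins above the control in ATRA (0.17 and 0.04, fitted 0.10 ± 0.08) and below it in DMSO (-0.13 and -0.15, fitted -0.14 ± 0.07). RUNX1 showed the same sides as GFI1 at smaller size, at 0.08 and 0.06 in ATRA and -0.04 and -0.03 in DMSO. Its DMSO side did not hold in run 2 alone, where hairpin 1 stood at 214.0 CPM against 210.9 in the control. In run 1 alone, hairpin 2 was close to the control in DMSO (202.3 against 202.5 CPM). Such opposite sides in the 2 treatments occurred in 3 of the 8 genes and in 25.2% of all genes.

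The difference between knockdown and control in the ATRA response was -0.36 ± 0.11 for SPI1 (unadjusted p = 0.014, adjusted p = 0.55), 0.24 ± 0.11 for GFI1 (adjusted p = 0.64) and 0.10 ± 0.08 for RUNX1 (adjusted p = 0.79). The ATRA response of both genes with the larger values, SPI1 and GFI1, was thus smaller in size in each hairpin than in the control, by an amount that did not pass the test. The other 5 genes lay between -0.11 and 0.11 (adjusted p 0.84 to 0.99), and the test called 0.0488% of all genes. Over its alternatives the SPI1 value ranged from -0.46 to -0.29, with adjusted p from 0.14 to 0.96. In each sequencing run alone, SPI1 was below the control in both ATRA hairpin libraries (373 and 356 CPM against 410.2 in run 1, 369.6 and 353 CPM against 402 in run 2) and above it in both DMSO hairpin libraries (94.2 and 106 CPM against 87.1 in run 1, 87.5 and 98.5 CPM against 83.1 in run 2). The 2 count columns of each library were taken as its runs and not as replicates. No spread between control libraries was drawn from them. Whether the runs only read the same library again was not tested. Between the runs of a library the chi-square per degree of freedom was 5.002 to 6.848, more than counting noise alone gives. Between the hairpins it was 11.002 in ATRA and 12.587 in DMSO.

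CBFB, ETV6 and IKZF1 were above the control with both hairpins in both treatments, which 28.8% of all genes matched with a shared side of either sign. For ETV6 and IKZF1 this did not hold in ATRA in run 2 alone. There hairpin 1 stood below the control, at 95.2 against 99.2 CPM for ETV6 and 335.9 against 338.4 CPM for IKZF1. CBFB differed by 0.09 ± 0.07 in ATRA and 0.08 ± 0.07 in DMSO, ETV6 by 0.03 ± 0.08 in ATRA and 0.14 ± 0.08 in DMSO, and IKZF1 by 0.03 ± 0.06 in ATRA and 0.10 ± 0.06 in DMSO. LMO2 was above the control with both hairpins in ATRA (0.14 ± 0.10), with the hairpins on either side of it in DMSO (0.04 ± 0.10). RUNX3 had the hairpins on either side of the control in both treatments (-0.06 ± 0.12 in ATRA and -0.08 ± 0.12 in DMSO). With both treatments in 1 fit, 4 hairpin libraries against 2 control libraries, the 8 values lay between -0.07 for RUNX3 and 0.09 for LMO2, none passed (adjusted p 0.68 to 0.98), and 0% of all genes were called (1003 at an unadjusted p under 0.05, 48 by DESeq2 and 0 by limma-voom).

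**Figure D4:**
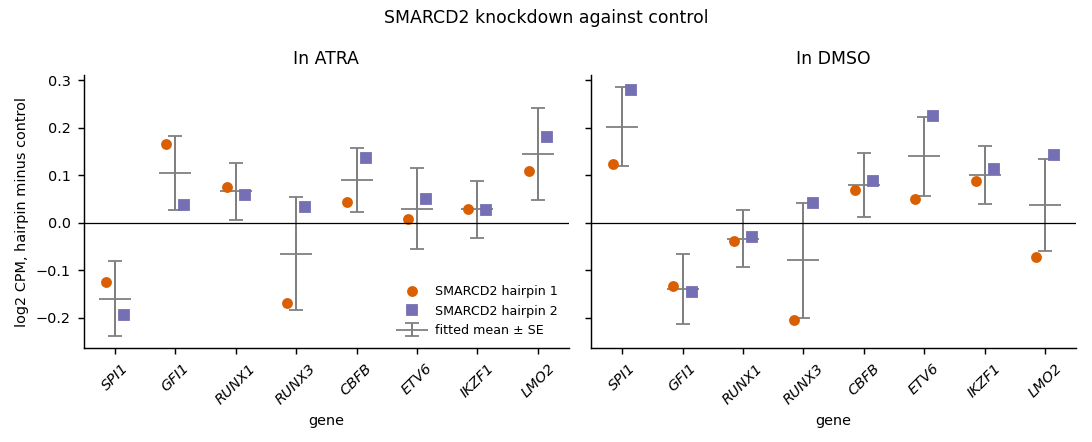
Hairpin minus control difference of each gene on the log2 CPM scale in ATRA (left) and DMSO (right), for hairpin 1 (circles) and hairpin 2 (squares), with the fitted mean and its SE in grey. SPI1 lies below 0 in ATRA and above 0 in DMSO, GFI1 the other way round, and RUNX3 has the 2 hairpins on either side of 0.

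The authors' deposited table, which compares knockdown with control within each treatment, lists no adjusted p under 0.05 for the 8 genes. For SPI1 the authors' deposited table gives log2 fold changes of -0.15 in ATRA (adjusted p = 0.0776) and 0.15 in DMSO (adjusted p = 0.497). For GFI1 the authors' deposited table gives 0.10 in ATRA (adjusted p = 0.577) and -0.13 in DMSO (adjusted p = 0.427). For SMARCD2 the authors' deposited table gives -0.40 in ATRA (adjusted p = 0.0073) and -0.96 in DMSO (adjusted p = 1.75e-21). The authors' deposited table calls 535 genes in ATRA and 146 in DMSO at that threshold. The fit above gave SMARCD2 -1.29 in ATRA and -1.55 in DMSO, and called 1 gene in ATRA and 0 in DMSO. The settings of the authors' model are not stated, so sizes and counts from the 2 sources may not share a scale.

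Partners and targets of the 8 factors showed no called gene in any of the 8 lists in knockdown against control, in either treatment, over both, or in the difference of the ATRA response. The median of PU.1 targets was 0.04 in ATRA and 0.11 in DMSO, against 0.00 over all genes in each, with 11 of 18 above the control in ATRA and 12 of 18 in DMSO. GFI1-repressed targets had medians of 0.06 in ATRA, with 5 of 9 above the control, and 0.46 in DMSO, with 8 of 9 above the control. Several of the 9 were near the floor in the single DMSO control library, with EGR2 at 0.227, HOXA9 at 0.552, CSF1 at 2.17 and ID2 at 2.47 CPM. The part of GFI1 in these values was not tested. RUNX1 targets had medians of 0.15 in ATRA and -0.01 in DMSO.

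The hairpins differed from each other in 1 of the 8 genes. RUNX3 was higher with hairpin 2 than with hairpin 1, at 102 CPM against 88.5 in ATRA and 70.4 CPM against 59.3 in DMSO, a log2 difference of 0.23 ± 0.06 (SE, n = 2 libraries each, with treatment as a term; adjusted p = 0.042). The test called 2.03% of all genes. It was not called by DESeq2 (0.23, adjusted p = 0.74) or from the second run alone (0.17, adjusted p = 0.31). LMO2 had 0.15 ± 0.06 (adjusted p = 0.32), ETV6 0.11 ± 0.06 (adjusted p = 0.49), and the other 5 lay between -0.07 and 0.06. SMARCD2 itself was lower with hairpin 2 than with hairpin 1 (-0.73 ± 0.07, adjusted p = 3.0e-06). Among the lists, IRF8 (0.48 ± 0.09) and CHD3 (0.24 ± 0.06) were higher and ETS1 (-0.49 ± 0.07) lower with hairpin 2. Eosinophil, basophil and mast cell markers also stood higher there, summing to 1132 CPM with hairpin 2 against 718 with hairpin 1 in ATRA (5 of 6 listed), and 2277 against 1586 CPM in DMSO (4 of 6). Of them, the eosinophil granule genes PRG2 (0.58 ± 0.04) and EPX (0.62 ± 0.07) passed the test. The promyelocyte marker PRTN3 passed as well (0.35 ± 0.06, adjusted p = 0.0017), at 411 CPM with hairpin 2 against 349 with hairpin 1 in ATRA and 75.3 against 54.7 CPM in DMSO, and 4 other promyelocyte markers did not. The part of these markers in the RUNX3 difference was not tested.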

How the data were processed

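Per the labels' protocols, GeneJET columns gave the RNA and the NEBNext Ultra kit the libraries. The submitters' processing notes name the tools bcl2fastq, STAR, Picard 2.5.0 and DESeq2 and the build GRCh37.p13 without their roles or how reads were counted. The authors deposited 1 table per treatment (12838 genes for ATRA, 12752 for DMSO) holding raw gene counts, with 2 columns for each library that were taken as its sequencing runs. Genes missing from a table reflect an unstated filter. For knockdown against control, the deposited tables also hold the authors' log2 fold change, p-value and adjusted p. Their 12 normalized columns were not used.

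Runs were summed and never taken as replicates. The 12301 genes in both tables were filtered with filterByExpr, which removed none for the 6-library fits and 1 for the hairpin fit, scaled with TMM on full table totals, and tested with edgeR 4.0.16 (quasi-likelihood, Benjamini-Hochberg over all genes, threshold 0.05) in R 4.3.3, with limma 3.58.1 and DESeq2 1.42.0 as alternatives. SE is the absolute log2 fold change over the square root of F. Knockdown comparisons within a treatment have 1 control library, so their spread comes from the hairpins (2 residual degrees of freedom). The hairpin comparison has 1 residual degree of freedom. Log2 differences of single libraries used a prior count of 1. Exon lengths came from the GENCODE basic annotation, and 250-base promoter windows from RefSeq. Figures used Python 3.11.15, pandas 2.3.3 and matplotlib 3.10.9. Named genes were the 8 factors, their nearest relatives, and up to 4 called genes per list with the largest change in ATRA against DMSO; exceptions are marked. The 8 factors and the lists were chosen with earlier results of these data known. The tests were tried on simulated data of 12301 genes. Some genes that this rule picks are not reported here.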

Additional observations from a re-analysis of the deposited data

Results flagged for a closer look

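SPI1, GFI1 and RUNX1 were picked out because both hairpins lay on one side of the control in ATRA and on the other in DMSO. The difference in ATRA response between knockdown and control was -0.36 for SPI1 (adjusted p = 0.55, edgeR's quasi-likelihood test), 0.24 for GFI1 (adjusted p = 0.64) and 0.10 for RUNX1 (adjusted p = 0.79), so none passed the test of the difference itself. Of all genes tested, 25.2% showed such opposite sides. For RUNX1 the DMSO side did not hold in run 2 alone, where hairpin 1 lay above the control.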

How the results depend on the processing

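In ATRA against DMSO, 7 of the 8 genes were called in the reported fit and in every fit that left out a library (7 to 7), 6 under total counts and 8 with RLE size factors, DESeq2 and limma-voom. CBFB was -0.021 under total counts, 0.12 with RLE size factors and with DESeq2, and 0.11 with limma-voom. Leaving out a library gave SPI1 1.89 to 2.09 and GFI1 -0.70 to -0.56. In the knockdown comparisons no alternative called any of the 8 genes. These values changed sign. Against the control in DMSO, leave-one-out gave RUNX3 -0.20 to 0.056 and LMO2 -0.064 to 0.16, and in ATRA RUNX3 -0.17 to 0.033, with IKZF1 at -0.0047 in run 2. Over both treatments, SPI1 was -0.0027 with limma-voom, -0.00021 in run 1, -0.012 in run 2 and -0.16 to 0.20 on leaving out libraries, GFI1 -0.14 to 0.10 and RUNX1 -0.034 to 0.063. In the difference of the ATRA response, RUNX3 was -0.044 in run 2 and -0.12 to 0.13 on leaving out libraries, CBFB -0.049 to 0.057 and LMO2 -0.015 to 0.21. Between the hairpins, 0 of the 8 genes were called by DESeq2 or from run 2, against 1, and RUNX1 was 0.013 under total counts and 0.012 in run 1; the cause was not tested. Leaving out a library could not be fitted there, since no residual degrees of freedom remain.

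With the construct as a replicate block, 7 of the 8 genes were called in ATRA against DMSO and 0 in the knockdown comparisons, while the count over all genes moved to 9132, 348 (knockdown in ATRA), 116 (knockdown in DMSO), 10 (both treatments) and 129 (difference in response). SMARCD2 itself passed with the block, at -1.35 in ATRA (adjusted p = 1.2e-07), -1.60 in DMSO (adjusted p = 1.8e-08) and -1.47 over both treatments (adjusted p = 7.0e-04), in a fit whose error leaves out the spread between constructs. Deviations of same-numbered constructs in ATRA and DMSO correlated across genes at 0.078 in the control, with 0.185 and 0.210 in hairpins 1 and 2. Each was highest with its own construct. A shared construct alone can give such values, so they cannot tell whether its ATRA and DMSO libraries came from the same transduction. One control library per treatment limits every knockdown value.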
